A study of Homo sapiens with 6 samples.

Results

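GLMP, a glycosylated protein of the lysosomal membrane, MFSD1, the lysosomal transporter that it accompanies, and TMEM79, the gene that overlaps GLMP on the other strand, are 3 of the 57773 genes counted in HEK293 cells after CRISPR/Cas9 disruption of the LINE-1-binding zinc finger proteins ZNF146 and ZNF507. GLMP was chosen by its measured level in the cells in which ZNF507 was disrupted, so its values there are a description, and MFSD1 and TMEM79 were added for their known partnership and their position. HEK293 is a line derived from human embryonic kidney. Its cells received PX459, a plasmid that encodes Cas9 and puromycin resistance, carrying guides against ZNF146 (sgZNF146), carrying guides against ZNF507 (sgZNF507), or as the empty vector (EV), with 2 libraries in each of the 3 groups and 4 target sequences per gene. All groups were selected with puromycin for 36 h and grown for 2 weeks after transfection, and the cells were uncloned pools that can carry many different alleles. The EV cells received the same Cas9 plasmid without a guide and so control for transfection and selection, but not for DNA cutting.

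Lysosomes degrade proteins, lipids and sugars and release the products to the cytosol through transporters of their membrane. MFSD1 belongs to the major facilitator superfamily and exports dipeptides, which are among the products of lysosomal peptidases. It carries no sugar chains of its own, and GLMP, which crosses the membrane once and is heavily N-glycosylated on the lumenal side, binds it and shields it from lysosomal proteolysis. In cells and mice without GLMP, MFSD1 protein is strongly reduced, and the reverse also holds. TMEM79, also called mattrin, is a multipass membrane protein best known from the skin barrier and as a factor that lowers Frizzled, the Wnt receptor, at the cell surface.

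GLMP (ENSG00000198715) lies on the minus strand of chromosome 1 of GRCh37 from 156259880 to 156265480. TMEM79 (ENSG00000163472) lies on the plus strand from 156252726 to 156262976, so that the genes run toward each other and overlap tail to tail over 3097 bases. The overlap takes in exons over 607 bases, which is 17.5% of the exonic bases of GLMP and 20% of those of TMEM79, while the exons of the canonical transcripts (6 in GLMP, 4 in TMEM79) share 0 bases. MFSD1 (ENSG00000118855) spans bases 158449987 to 158547508 of chromosome 3 on the plus strand, with 16 exons in the canonical transcript. Of the exonic bases of MFSD1, 6.8% are shared with a long noncoding RNA on the same strand, ENSG00000240207, which had 54 to 75 counts.

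The promoters are shown because they set MFSD1 and GLMP apart from TMEM79. They are the 90 bases directly upstream of the RefSeq start sites (RefSeq table on GRCh38.p14), matched base for base to GRCh37, and read in the direction of transcription. Capitals mark TCATGTGA (TCACATGA on the other strand) or TCACGTGA (the same on both strands), extended forms of the E-box, a class of site bound by basic helix-loop-helix leucine zipper factors that include TFEB and TFE3, regulators of lysosomal genes, and the USF proteins. The stretches lie at chr1:156265471-156265560 (minus strand) for GLMP, chr3:158519753-158519842 (plus strand) for MFSD1 and chr1:156252633-156252722 (plus strand) for TMEM79.
GLMP: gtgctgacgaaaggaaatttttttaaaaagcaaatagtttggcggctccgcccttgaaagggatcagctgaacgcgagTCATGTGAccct
MFSD1: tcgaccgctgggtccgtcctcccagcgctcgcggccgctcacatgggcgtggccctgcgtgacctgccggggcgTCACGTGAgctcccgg
TMEM79: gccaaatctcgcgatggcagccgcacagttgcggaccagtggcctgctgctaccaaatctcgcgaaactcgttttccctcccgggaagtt
In GLMP the motif runs from 12 to 5 bases before the start site. The start site of MFSD1 lies inside the span given above, since longer annotated transcripts begin upstream of it. Here TCACGTGA runs from 16 to 9 bases before it, and TCATGTGA follows from base 3 to base 10 of the transcript. The full windows (250 bases before to 50 after) around both RefSeq start sites of TMEM79 held neither. Of the 35116 windows in the table, 1.00% held TCATGTGA and 0.980% held TCACGTGA, and 0.0940% held TCATGTGA together with the 6-base core CACGTG, as MFSD1 does. A match of letters does not show that a factor is bound.

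The libraries held 22724439 to 28524025 counts. ZNF507 mRNA fell to 65.1% of EV in sgZNF507, a log2 change of -0.62 (SE, standard error, 0.07, adjusted p = 0.00195 in the quasi-likelihood test of edgeR, adjusted by Benjamini and Hochberg's method for the 22010 genes tested). ZNF146 mRNA differed from EV by -0.13 in sgZNF146 (adjusted p = 1, same test). These mRNA levels do not measure the disruption itself. By western blot the authors could detect almost no ZNF146 or ZNF507 protein in the targeted cells, and they often found indels at the guide sites in the reads. Of the HEK293 markers, VIM stood at 1040 CPM (counts per 1000000 counts of the library), LIN28B at 92.3, NEFM at 72.0, INA at 17.7 and PAX2 at only 6.15 CPM, and NEFL was not analysed here. PTPRC and ALB, markers of blood and liver cells, had 6 counts or fewer in any library, whereas COL1A1, a collagen gene of fibroblasts, stood at 64.2 CPM on average. COL3A1, another collagen gene of fibroblasts, stood at 7.33 CPM, and PECAM1, a marker of endothelium, was not analysed here. Processed pseudogenes within introns of highly counted genes provided a check of strand, because reads from unspliced host RNA reach them only if their strand matches or if strand was ignored. Of 101 pseudogenes on the strand of their host, 94.1% had at least 10 reads over the 6 libraries, against 11.8% of 288 on the opposite strand. Counting thus separated the strands, and reads of GLMP and TMEM79 were told apart where the genes overlap.

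GLMP was counted 855 and 1121 times in EV, 878 and 970 times in sgZNF146 and 246 and 352 times in sgZNF507. Normalized to library size, these are 34.3 and 40.5 CPM in EV, 34.6 and 38.6 CPM in sgZNF146, and 10.7 and 12.2 CPM in sgZNF507. The EV and sgZNF146 libraries thus overlapped, and both sgZNF507 libraries lay far below the other 4. The group means were 37.4 ± 4.39 CPM in EV, 36.6 ± 2.80 in sgZNF146 and 11.4 ± 1.04 in sgZNF507 (SD, n = 2 each). GLMP in sgZNF507 was 30.6% of EV (95% interval 25.7% to 36.3%), a lower share than the 65.1% (58.6% to 72.3%) of ZNF507 mRNA itself. The log2 fold change of GLMP was -1.71 against EV (SE 0.11) and -1.68 against sgZNF146 (SE 0.11), the latter comparison using the same sgZNF507 libraries. In sgZNF507 against EV, 40 of the 22010 genes (0.182%) had an adjusted p under 0.05, 15 of them lower (0.0682%), GLMP among the latter, which was the ground for choosing it. By log2 fold change GLMP was at rank 17 from the lowest of all 22010 genes. Of the 6058 genes at or above its EV level it was the lowest, next to MT-RNR1 at -1.70. MT-RNR1 is a mitochondrial ribosomal RNA, and the libraries were depleted of ribosomal RNA, so its counts can also reflect that step. With any 1 of the 4 libraries left out, the log2 fold change against EV stayed between -1.82 and -1.59. Because RNA was taken from a pool, a loss of GLMP mRNA in part of the cells and a smaller decrease in all of them cannot be told apart.

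**Figure D1:**
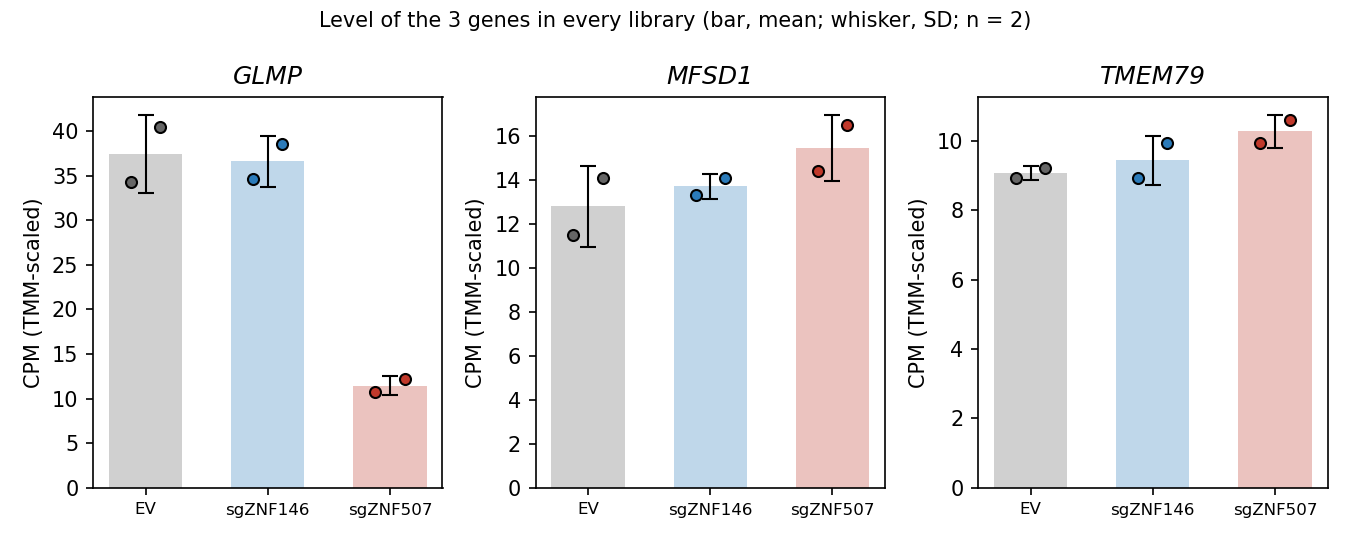
CPM scaled by TMM (y axis, from 0, with a scale of its own in each panel) of GLMP, MFSD1 and TMEM79 in each library of the 3 groups; points are libraries, bars the mean and whiskers the SD (n = 2). GLMP lies between 34.3 and 40.5 CPM in the EV and sgZNF146 libraries and at 10.7 and 12.2 CPM in sgZNF507, whereas MFSD1 and TMEM79 have their highest mean in sgZNF507.

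After ZNF146 disruption no difference of GLMP from EV was detected. The log2 fold change was -0.04 (SE 0.10, 95% interval -0.26 to 0.19, adjusted p = 1 in edgeR's quasi-likelihood test), which leaves room for a level between 83.3% and 114% of EV. The sgZNF146 libraries were not used to choose GLMP, but the EV libraries were. In this comparison 0 of 22010 genes (0%) were called by edgeR or by DESeq2 with all 6 libraries, and 535 genes had an unadjusted p under 0.05.

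MFSD1 mRNA lay slightly above EV in sgZNF507, but the difference did not pass the test. It was counted 286 and 391 times in EV, 338 and 354 times in sgZNF146 and 331 and 477 times in sgZNF507. In CPM, EV had 11.5 and 14.1, sgZNF146 had 13.3 and 14.1, and sgZNF507 had 14.4 and 16.5. Both sgZNF507 libraries lay above both EV libraries and the EV and sgZNF146 libraries overlapped. The share of all genes that separate in this way was not counted, so with 2 libraries a group this is only a description. The means were 12.8 ± 1.88 CPM in EV, 13.7 ± 0.532 in sgZNF146 and 15.4 ± 1.49 in sgZNF507 (SD, n = 2 each). In sgZNF507 against EV the log2 fold change was 0.27 (SE 0.13, adjusted p = 1 in edgeR's quasi-likelihood test), and the unadjusted p of that model was 0.0577. The 95% interval of -0.01 to 0.54 corresponds to a level between 99.3% and 146% of EV. In sgZNF507 against sgZNF146, where 38 genes (0.173%) were called, the log2 fold change was 0.17 (95% interval -0.10 to 0.45, adjusted p = 1, same test), and sgZNF146 against EV gave 0.09 (95% interval -0.19 to 0.37, adjusted p = 1). MFSD1 protein, on which GLMP acts, was not measured here.

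TMEM79, which shares its locus with GLMP, also had its highest mean in sgZNF507 and did not pass the test. It was counted 222 and 255 times in EV, 227 and 250 times in sgZNF146 and 229 and 306 times in sgZNF507. In CPM, EV had 8.92 and 9.22, sgZNF146 had 8.94 and 9.94, and sgZNF507 had 9.94 and 10.6. Both sgZNF507 libraries lay above both EV libraries, which is again only a description, while EV and sgZNF146 overlapped. The means were 9.07 ± 0.216 CPM in EV, 9.44 ± 0.701 in sgZNF146 and 10.3 ± 0.442 in sgZNF507 (SD, n = 2 each). The log2 fold change was 0.18 in sgZNF507 against EV (SE 0.13, 95% interval -0.09 to 0.45, adjusted p = 1 in edgeR's quasi-likelihood test), which spans 93.7% to 137% of EV. It was 0.12 against sgZNF146 (95% interval -0.15 to 0.39) and 0.06 in sgZNF146 against EV (95% interval -0.22 to 0.33), with an adjusted p of 1 for both in the same test. For every 100 reads of TMEM79 there were 385 and 440 reads of GLMP in EV, 387 and 388 in sgZNF146 and 107 and 115 in sgZNF507. This ratio, taken within each library, was lower in both sgZNF507 libraries than in the other 4. GLMP was chosen for its decrease in these sgZNF507 libraries, so the lower ratio follows from that choice and is only a description.

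**Figure D2:**
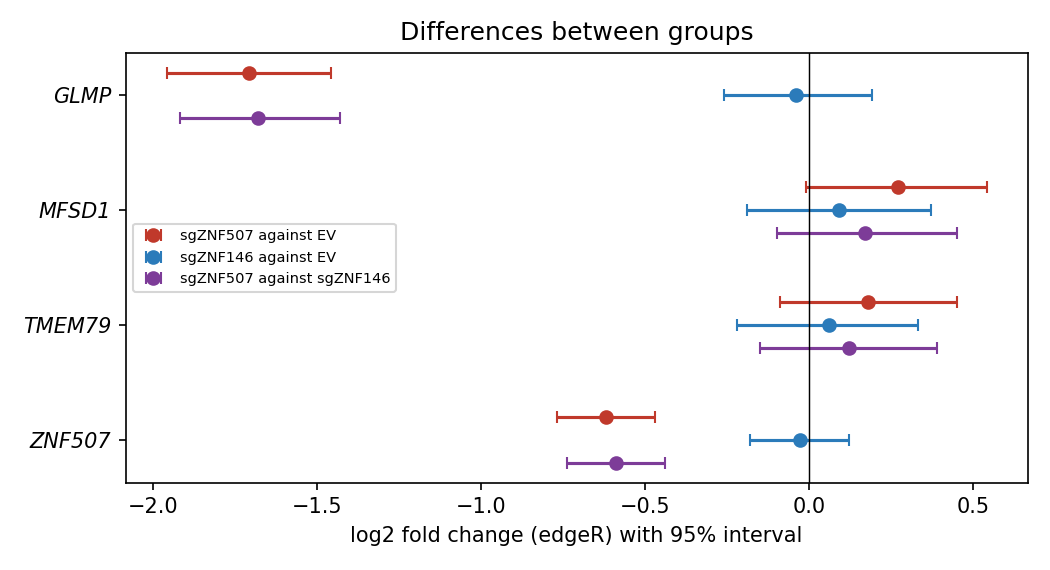
Log2 fold changes from edgeR (x axis) with 95% intervals for GLMP, MFSD1, TMEM79 and ZNF507 in the 3 comparisons between groups. GLMP lies at -1.71 and -1.68 in the comparisons with sgZNF507 and at -0.04 in sgZNF146 against EV, and all intervals of MFSD1 and TMEM79 include 0.

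Compared per canonical transcript length, the order of the mean levels was the same in every group, but the lead of GLMP was not. RPKM values, CPM divided by the length of the canonical transcript in kb, were 23.2 ± 2.72 for GLMP, 5.74 ± 0.841 for MFSD1 and 4.21 ± 0.100 for TMEM79 in EV (SD, n = 2 each). The sgZNF146 libraries kept this order, with 22.7 ± 1.74, 6.14 ± 0.238 and 4.38 ± 0.325 RPKM. In sgZNF507, GLMP at 7.08 ± 0.648 RPKM and MFSD1 at 6.91 ± 0.666 RPKM differed by less than their spread, with TMEM79 at 4.76 ± 0.205 RPKM below both. Among the 14744 protein-coding genes tested, whose median in EV was 7.30 RPKM, GLMP stood at percentile 78.8, MFSD1 at 44.2 and TMEM79 at 37.7. The ratio of GLMP to MFSD1 on this scale was 4.14 and 3.97 in EV, 3.6 and 3.79 in sgZNF146 and 1.03 and 1.02 in sgZNF507. An excess of mRNA of the glycoprotein over that of its transporter in EV and sgZNF146 was therefore close to parity in sgZNF507. As GLMP was chosen for its decrease there, this change of the ratio is only a description. With length counted over all annotated exons, EV means were 10.8 for GLMP, 2.45 for MFSD1 and 2.99 for TMEM79. In sgZNF507 these means were 3.29 for GLMP, 2.95 for MFSD1 and 3.38 for TMEM79, with TMEM79 highest. The order of MFSD1 and TMEM79 therefore rests on the length used, as does that of GLMP and TMEM79 in sgZNF507.

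The genes around GLMP were not called in sgZNF507 against EV. With 0.182% of all genes called, a count of 0 among 45 genes is no result about them. Within 500 kb on either side, 45 other genes were tested, and in sgZNF507 against EV 0 of them were called by edgeR, against 0.182% of all genes, 1 had an unadjusted p under 0.05, and DESeq2 called 0. Their median log2 fold change was -0.02 beside 0.00 over all genes tested. For the 26 neighbors with a mean of at least 10 CPM, log2 fold changes ran from -0.16 to 0.24 in this comparison and from -0.10 to 0.10 in sgZNF146 against EV. The nearest tested gene on one side of the pair is SMG5, a factor of nonsense-mediated decay whose start site lies beside that of TMEM79, with a log2 fold change of 0.01 (SE 0.06). On the other side, VHLL, 2.9 kb from the start of GLMP, had -0.50 with an SE of 0.40 at a mean of only 0.769 CPM. Sites at which the ZNF507 guides could cut were searched in the loci and 2 kb around them. Read on the strand opposite to the listed one and completed to 20 bases, each of the 4 guides is followed by NGG in ZNF507, and its best site next to NGG had 6 to 9 mismatches in GLMP, 6 to 9 in TMEM79 and 6 to 7 in MFSD1. Read as listed, the best sites had 5 to 8 mismatches in GLMP, 5 to 8 in TMEM79 and 4 to 7 in MFSD1.

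**Figure D3:**
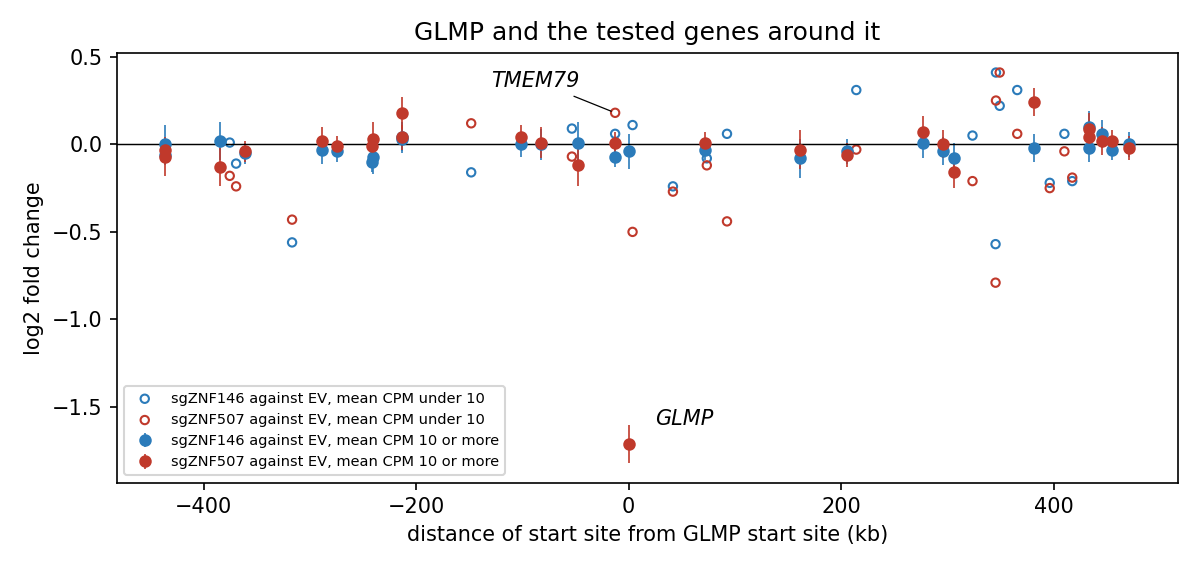
Log2 fold change (y axis) of GLMP and the tested genes within 500 kb against the distance of their start site from that of GLMP in kb (x axis), for sgZNF507 (red) and sgZNF146 (blue) against EV; filled points have a mean of at least 10 CPM and carry their standard error, open points lie below. GLMP lies lowest at -1.71, and the other filled red points lie between -0.16 and 0.24.

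Genes with related roles were counted in 5 lists, of which 4 hold lysosomal or transporter genes. Over all 22010 genes tested, 0.182% were called and 747 had an unadjusted p under 0.05 in sgZNF507 against EV, so a count of 0 called in a list of this size is no result about its members. Of the MFSD family, transporters named for the same superfamily as MFSD1, 16 of 19 members could be tested and 0 were called in sgZNF507 against EV, with a median log2 fold change of 0.03 and a range from -0.21 to 0.27, the latter being MFSD1 (1 member with an unadjusted p under 0.05, 0 called by DESeq2). The members with the highest RPKM were MFSD10, at 87.4 ± 4.13 CPM in EV and 90.7 ± 3.82 in sgZNF507, and MFSD12, a lysosomal cysteine importer, at 107 ± 3.73 and 112 ± 4.97 (SD, n = 2 each). MFSD6L and SLC49A3 had too few counts for a test, and MFSD14C was not analysed here.

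Transporters that need an accessory protein, as MFSD1 needs GLMP, and those accessory proteins made up a list of 10 tested genes. One of these, CLCN7, the lysosomal chloride-proton exchanger, rose in sgZNF507 from 123 ± 10.8 to 168 ± 8.30 CPM (SD, n = 2 each; log2 fold change 0.45, SE 0.07, adjusted p = 0.0237 in edgeR's quasi-likelihood test). Its own glycosylated partner OSTM1 was not called, nor were the highly expressed BSG and SLC3A2, accessory proteins of monocarboxylate and amino acid transporters, and the median of the list was -0.02.

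The list of lysosomal exporters, in which MFSD12 imports into the lysosome, had 14 of 15 members tested and a median of 0.08. Of these, 2 were called by edgeR and by DESeq2, both higher, where 0.114% of all genes tested were called higher, and 4 had an unadjusted p under 0.05. Among these 4, SLC36A1 was lower, with a log2 fold change of -0.24, and the others were higher. SLC38A7, a glutamine and asparagine transporter, rose from 44.4 ± 4.62 CPM in EV to 67.6 ± 1.26 in sgZNF507 (SD, n = 2 each), higher by 0.61 on the log2 scale (SE 0.08, adjusted p = 0.0103 in edgeR's quasi-likelihood test). SPNS1, a lysophospholipid exporter of the same superfamily as MFSD1, rose from 6.15 ± 0.0561 to 11.4 ± 0.395 CPM (SD, n = 2 each), or by 0.89 (SE 0.14, adjusted p = 0.0243, same test), and 55.4% of its exonic bases are shared with another gene on the same strand. NPC1, the cholesterol exporter, and MFSD12 had the highest RPKM of this list and were not called.

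Lysosomal peptidases, not all of which release dipeptides such as MFSD1 exports, numbered 17, all tested. CTSA, which also protects other lysosomal enzymes, was called, higher by 0.48 (SE 0.08, adjusted p = 0.0266, same test), the remaining 16 were not, and the median was 0.01. DESeq2 called 1 member as well, and 4 had an unadjusted p under 0.05 in edgeR. Among these 4 the direction was split, with CTSA and CTSD (log2 fold change 0.16) higher and TPP1 and SCPEP1 (-0.31 each) lower. CTSD, the most abundant per length, had 152 ± 6.45 CPM in EV and 170 ± 7.77 in sgZNF507 (SD, n = 2 each). For TMEM79, the 15 genes of Frizzled turnover (the receptors FZD1 to FZD10, their coreceptors LRP5 and LRP6, the ubiquitin ligases ZNRF3 and RNF43 and the deubiquitinase USP8) were all tested, 0 were called by edgeR or DESeq2 (0 at an unadjusted p under 0.05), and log2 fold changes ran from -0.08 to 0.16. In sgZNF146 against EV 0 members of any of the 5 lists were called by edgeR or DESeq2, and 1, in the MFSD family, had an unadjusted p under 0.05. The called genes of these lists were known from earlier results of these data, and each lost its call when certain single libraries were left out. Without replicate 1 of EV, the adjusted p was 0.389 for CLCN7, 0.172 for SLC38A7, 0.283 for SPNS1 and 0.443 for CTSA. SPNS1 also lost its call without any 1 of the other 3 libraries (adjusted p up to 0.271), CTSA without replicate 2 of EV (0.253) or replicate 1 of sgZNF507 (0.202), and CLCN7 without replicate 1 of sgZNF507 (0.152). Their log2 fold changes stayed positive throughout, at 0.37 to 0.54 for CLCN7, 0.51 to 0.71 for SLC38A7, 0.86 to 0.92 for SPNS1 and 0.36 to 0.60 for CTSA.

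**Figure D4:**
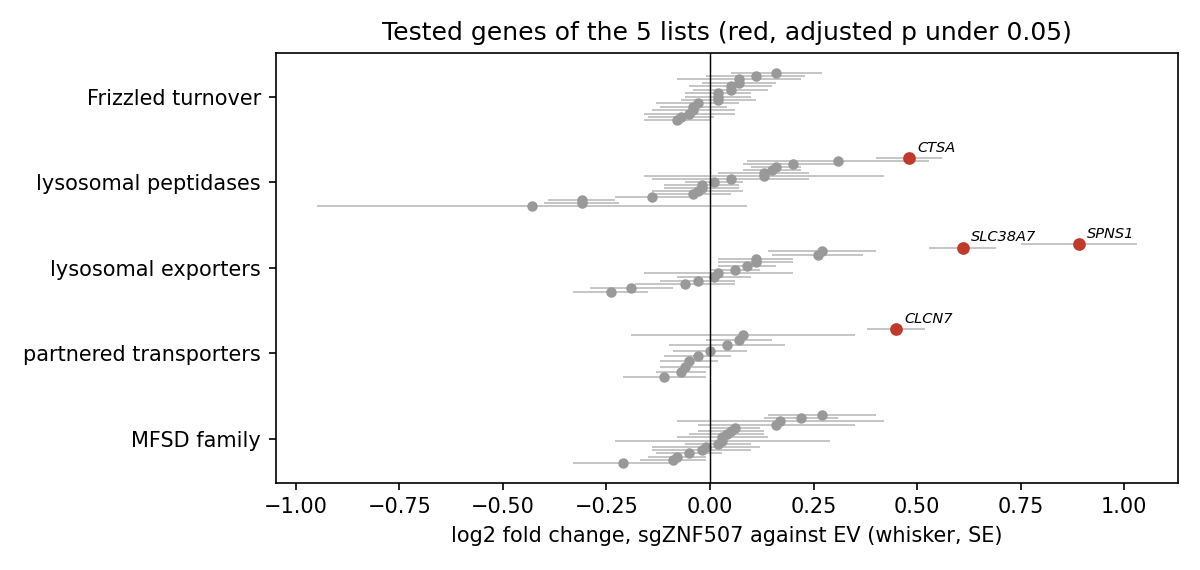
Log2 fold changes in sgZNF507 against EV (x axis, whiskers give the standard error) for the tested genes of 5 lists (y axis), each dot a gene. The 4 called genes, in red, are CTSA, SLC38A7, SPNS1 and CLCN7, all higher, and every other dot lies between -0.43 and 0.31.

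The motif in the promoters of GLMP and MFSD1 was then counted over all tested genes in the promoter table, a count chosen after these promoters had been seen. TCATGTGA or TCACGTGA was found in 418 of the 13158 tested genes with a promoter (3.18%). Of the 26 genes called in sgZNF507 against EV that have a promoter in the table, 20 held it (76.9%). These were 5 of 5 genes that were lower, namely GLMP, GPRASP3, WDR81, SNX8 and ZNF507 itself. Of those that were higher, 15 of 21 held it, among them NAGPA, COMMD9, LAMP1, SPNS1, SLC38A7 and CTSA. Over all genes 15 were called lower and 25 higher, so the promoter table leaves out most of the lower ones and few of the higher ones. GLMP had the largest decrease of the genes with a motif that were called, and NAGPA, the enzyme that uncovers the mannose 6-phosphate tag of lysosomal hydrolases, the largest increase, at 1.16. Genes with the motif were called in 4.78% of cases, against 0.0471% of the 12740 genes without it, so that most of them, MFSD1 included, were not called. The median absolute log2 fold change of all genes with the motif was 0.08, beside 0.07 without it. In windows around GENCODE start sites on GRCh37, an alternative also chosen after the data were seen, which cover 29 called protein-coding genes, 21 of these held a motif (72.4%) against 2.62% of 14643 tested. These called genes come from the comparison that also chose GLMP, and whether the motif bears on their levels was not tested.

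**Figure D5:**
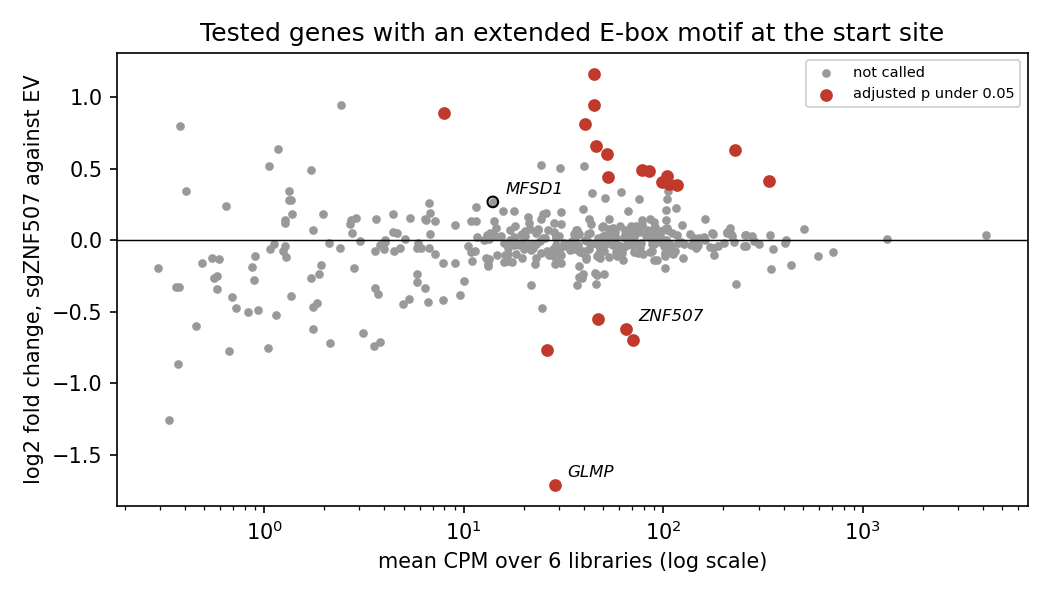
Each dot is one of the 418 tested genes with TCATGTGA or TCACGTGA within 250 bases before to 50 after a RefSeq start site, placed by mean CPM over 6 libraries (x axis, log scale) and log2 fold change in sgZNF507 against EV (y axis). The 20 called genes (red) lie on both sides of 0, GLMP lowest at -1.71, while MFSD1 (ringed, 0.27) is not called.

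Over the 6 libraries, the genes most like GLMP in log2 CPM were ZNF507 (Pearson r 0.999), RNF128 (0.999), a ubiquitin ligase, and HEXA (0.992), the alpha subunit of beta-hexosaminidase. The points fall into the sgZNF507 libraries and the other 4, so that any gene lowered in sgZNF507 alone comes out as alike. The sizes were unequal, since RNF128 went from 14.5 CPM in EV to 12.8 in sgZNF507 and HEXA from 63.6 to 46.4. MFSD1 was most like JOSD2 (0.990), a deubiquitinase, ENSG00000068793 (0.990) and the noncoding RNA ENSG00000265912 (0.987). Among the genes most like TMEM79 were ZSCAN26 (0.994) and LAMB1 (0.992), a laminin chain. As 17281 genes were compared over 6 libraries that share their normalization, values of this size are to be found for many genes, and 126 to 180 genes had an r over 0.9 with each member.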

How the data were processed

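RNA was sequenced from 6 libraries of HEK293 cells. The authors clipped reads with the Fastx Toolkit, removed ribosomal reads with Bowtie, mapped the rest to hg19 with TopHat2 and Ensembl gene models and counted them per gene with featureCounts, whose strand option is not given in the sources used here. The deposited values are whole-number counts, neither normalized nor pooled, and PCR duplicates were counted as reads. Total counts ranged from 22724439 to 28524025 per library. Replicates are labelled as biological duplicates and differed by more than counting error (chi-square per degree of freedom 6.38 to 9.60 over genes with at least 10 counts). Groups and replicate numbers were taken from the labels.

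Symbols, exons and positions came from GENCODE on GRCh37, which matched 96.1% of gene identifiers. Counts were filtered by filterByExpr (22010 genes left), normalized by TMM and tested with glmQLFit and glmQLFTest in edgeR 4.0.16 under R 4.3.3, with all 6 libraries in 1 fit and Benjamini-Hochberg adjustment over all genes at a threshold of 0.05. CPM refer to library sizes after TMM. Standard errors and 95% intervals were derived from the F statistic and are approximate. The fit was checked on simulated data. Log2 CPM for likeness used a prior count of 2, over genes with a mean of at least 1 CPM. Promoter sequences were taken from RefSeq, 250 bases before to 50 after each start site, in which all 3 genes were found. No amino acid sequences were used here.

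The members, the gene lists and the tests were chosen with earlier results of these data known. Named were the 3 members, the targeted genes, called members of each list and its 2 members with the highest RPKM, genes beside GLMP, and the 3 genes most like each member, of which 1 is not reported here. Other genes, such as MT-RNR1, OSTM1 and the called genes with a motif, were named after their values were seen. Alternatives were DESeq2's size factors, no filter, DESeq2 1.42.0 on 6 or 4 libraries, edgeR on 4 libraries, the replicate number as a block, and leaving out each library. Figures were drawn with matplotlib 3.10.9.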

Additional observations from a re-analysis of the deposited data

How the results depend on the processing

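The direction of GLMP, MFSD1 and TMEM79 in sgZNF507 against EV and against sgZNF146 held under every alternative run. Their side of the threshold held in the fits that kept both libraries of each group. GLMP was chosen for its decrease in these same sgZNF507 libraries, so for GLMP this is a description and no support. When libraries were left out in turn, log2 fold changes against EV lay between -1.82 and -1.59 for GLMP, 0.13 and 0.42 for MFSD1 and 0.14 and 0.22 for TMEM79. Against sgZNF146 they lay between -1.76 and -1.59, 0.08 and 0.26, and 0.05 and 0.20. In sgZNF146 against EV the sign turned for all 3 genes when libraries were left out, with ranges of -0.15 to 0.09 for GLMP, -0.05 to 0.25 for MFSD1 and -0.02 to 0.13 for TMEM79. The numbers of genes called depended on the fit. Without a filter on low counts they were 101 in sgZNF507 against EV, 19 in sgZNF146 against EV and 112 in sgZNF507 against sgZNF146, in place of 40, 0 and 38. The fit of only the 4 libraries compared called 3 genes in sgZNF146 against EV, both in edgeR and in DESeq2. Leaving out 1 library gave 12 to 44, 0 to 1 and 13 to 37 calls in the 3 comparisons, the lowest without replicate 1 of EV (12) and without replicate 1 of sgZNF146 (13). An arm left with 1 library is assumed to vary like the other groups. The cause of these shifts was not tested.

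The labels number the replicates 1 and 2 in every group without saying that a number marks a shared batch. Between groups, the deviations of the first replicates from their means had a correlation of 0.138 to 0.176 across genes. GLMP, MFSD1 and TMEM79 each had more CPM in replicate 2 than in replicate 1 of every group, by a factor of 1.03 to 1.23. With the replicate block, 121, 33 and 196 genes were called. The log2 fold changes were then -1.71 for GLMP, 0.27 for MFSD1 (adjusted p = 0.413 in edgeR) and 0.18 for TMEM79 (adjusted p = 0.775) in sgZNF507 against EV, and the lysosomal peptidases had 3 called members in place of 1 there and against sgZNF146, with TPP1 and SCPEP1 lower, the lysosomal exporters 3 in place of 2 against sgZNF146 with SLC36A1 lower, and 1 of the 45 neighbors of GLMP was called against sgZNF146. In edgeR with only 4 libraries, CLCN7 (adjusted p = 0.0573) and CTSA (0.0754) lost their call. At 222 to 477 counts per library, the intervals of MFSD1 and TMEM79 leave changes of the sizes given in the report undecided.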
